A study of Mus musculus with 20 samples.

Results

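The genes described here are 32 components of macroautophagy, chosen by gene symbol from a list of machinery and receptor genes, with no measured value in the rule. All 32 were found among the 32400 Ensembl genes of the deposited table. They were ordered by the step they serve: 5 genes of initiation, 7 of nucleation and membrane growth, 9 of the conjugation of ATG8 proteins, 7 cargo receptors and 4 genes of fusion with the lysosome. Of these, 31 had enough reads to be tested. Atg9b, a relative of Atg9a, whose product scrambles lipids between membrane leaflets, fell under the filter on low counts.

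Autophagy encloses cytoplasm, glycogen, lipid droplets or worn organelles in a double membrane and delivers them to the lysosome. The ULK kinase complex starts the process, a phosphatidylinositol 3-kinase complex with Beclin 1 and ATG14 marks the growing membrane, and a ubiquitin-like conjugation system attaches the small ATG8 proteins (the LC3 and GABARAP families) to it. Receptors such as p62 hold cargo to ATG8 proteins, and the HOPS tether joins the finished autophagosome to the lysosome. In the liver, autophagy is known for supplying amino acids in fasting and for breaking down lipid droplets and mitochondria. Folliculin, the product of Flcn, acts at the lysosome on the Rag GTPases and through them controls TFEB and TFE3, transcription factors that bind CACGTG-type sequences at lysosomal and autophagy genes.

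Liver mRNA of C57BL/6NTac mice was sequenced in 20 libraries. The chow control group (n = 5) ate normal chow and was untreated. The HFHF control group (n = 7) ate a diet rich in fat and fructose (HFHF) and received phosphate-buffered saline as vehicle. The HFHF Flcn gRNA group (n = 8, called the gRNA group here) ate that diet and received a guide RNA against Flcn carried by an AAV8 vector, an adeno-associated virus serotype that reaches hepatocytes well. The labels give no transgene, no age and no duration of diet, and neither the guide's target site nor the source of the nuclease is given in the sources used here. The vehicle group received no virus, so virus and guide cannot be told apart. The chow group received no vehicle, so in HFHF controls against chow, called the diet comparison here, diet and vehicle cannot be told apart. The chow group differed from the gRNA group in diet as well as in treatment. The labels do not tie each library to a separate animal, so p-values reflect only how these samples spread, which may in part be technical.

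Library totals ran from 14131976 to 16285324 estimated counts in chow, from 15244760 to 18194089 in HFHF controls and from 13974379 to 19586576 in the gRNA group. Flcn itself ranged from 17.3 to 32.4 CPM (counts scaled to a library of common size, adjusted by TMM factors) in chow, from 17.8 to 26.4 in HFHF controls and from 14.1 to 21.97 in the gRNA group, and the fitted log2 difference of gRNA against HFHF control was -0.22 (SE 0.12, adjusted p = 0.140). Against chow, Flcn was lower in the gRNA group by -0.32 (SE 0.13, adjusted p = 0.04995), just past the threshold. The ranges of Flcn overlapped between all 3 groups. Fnip2, which encodes a folliculin partner, ranged from 67.3 to 209 CPM in the gRNA group against 22.2 to 39.0 in HFHF controls. The title of gRNA replicate 8 carries a different number in its second field than the other titles. Whether that number marks a batch is not given, and a batch of 1 library gives no within-batch value. Markers of other liver cells moved between groups. Summed hepatocyte markers ranged from 68888 to 92040 CPM in chow, from 39185 to 59208 in HFHF controls and from 44653 to 76357 in the gRNA group. For 10 hepatic stellate cell markers the summed ranges were 234 to 286, 693 to 947 and 314 to 448 CPM, and for 9 markers of monocyte-derived macrophages they were 29.0 to 46.6, 152 to 372 and 85.2 to 216 CPM. No defining marker of these 3 lists was at 0 in all libraries.

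Promoters are shown first because the transcription factors downstream of folliculin are known to bind a short palindrome, CACGTG. The windows printed were chosen with the calls and the palindrome known. Whether the palindrome bears on any difference between groups was not tested. RefSeq promoter windows of GRCm38.p6, from 250 bases before to 50 bases after the annotated start, were matched by symbol for 26 of the 32 members. Rb1cc1, Becn1, Map1lc3a, Atg16l1, Bnip3l and Vps11 had no entry. The sequences below, written 5′ to 3′ on the gene's strand with CACGTG in capitals, belong to Vps33a (chr5:123572966-123573265, minus strand), Atg5 (chr10:44268089-44268388, plus strand) and Atg14 (chr14:47568385-47568684, minus strand), which were higher in the gRNA group and hold the palindrome, and to Gabarapl1 (chr6:129532942-129533241, plus strand), the member with the largest rise, which does not hold it in this window.
Vps33a: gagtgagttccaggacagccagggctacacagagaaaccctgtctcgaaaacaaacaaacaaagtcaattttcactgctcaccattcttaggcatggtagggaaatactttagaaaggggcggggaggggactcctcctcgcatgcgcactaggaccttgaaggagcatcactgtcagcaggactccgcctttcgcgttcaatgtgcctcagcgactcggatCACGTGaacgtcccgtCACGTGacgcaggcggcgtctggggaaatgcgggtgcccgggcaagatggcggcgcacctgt
Atg5: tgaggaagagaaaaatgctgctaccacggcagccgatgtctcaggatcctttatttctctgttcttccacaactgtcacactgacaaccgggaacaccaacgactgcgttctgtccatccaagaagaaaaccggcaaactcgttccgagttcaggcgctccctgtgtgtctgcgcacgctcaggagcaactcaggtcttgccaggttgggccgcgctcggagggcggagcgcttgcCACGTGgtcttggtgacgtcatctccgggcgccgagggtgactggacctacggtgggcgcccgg
Atg14: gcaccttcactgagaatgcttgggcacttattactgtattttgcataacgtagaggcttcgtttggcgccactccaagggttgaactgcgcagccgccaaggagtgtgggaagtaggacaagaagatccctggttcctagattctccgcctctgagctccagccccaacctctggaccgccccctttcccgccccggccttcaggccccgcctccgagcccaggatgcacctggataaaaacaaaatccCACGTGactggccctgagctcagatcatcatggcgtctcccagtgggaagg
Gabarapl1: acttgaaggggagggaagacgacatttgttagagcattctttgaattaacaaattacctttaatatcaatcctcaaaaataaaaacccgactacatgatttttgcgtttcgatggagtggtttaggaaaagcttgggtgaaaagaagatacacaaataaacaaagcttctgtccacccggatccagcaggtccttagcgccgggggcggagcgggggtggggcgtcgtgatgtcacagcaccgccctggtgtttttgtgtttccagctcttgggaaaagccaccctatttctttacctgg

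Vps33a held CACGTG at 2 places, at -28 to -23 and at -12 to -7 from the annotated start. Atg5 held it at -14 to -9, and Atg14 across the RefSeq start itself, from -1 to 5, a start that matches a GENCODE transcript 2215 bases inside the gene. The Atg7 entry held it at -132 to -127, but its RefSeq start lies 27999 bases inside the GENCODE gene and 9066 bases from the nearest transcript start, so it is not shown. Bnip3, which did not pass with the guide, held it at -108 to -103. CACGTG reads the same on both strands, so each match was counted once. By gene, 4 of the 11 members with a promoter that were higher in the gRNA group held CACGTG (36.4%), as did 1 of the 15 other members (6.67%) and 8.09% of 27025 genes. Without Atg7 the first count was 3 of 10 (30%). The same palindrome with GT before it and AC after it was found in Vps33a alone among the members and in 0.37% of genes. Per promoter window, since some genes have several, TCACGTG on either strand, which contains CACGTG, was counted too. It was in 3 of 13 windows of members higher with the guide, 0 of 16 of the others and 3.77% of all. The Atg7 window set aside above is among those 3. CATGTG on either strand went the other way, in 0 of 13, 3 of 16 and 14.2%. These counts describe letters in a window. Binding was not measured, and no match says only that the letters are not in these 300 bases.

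With the Flcn guide, 12 of the 31 tested members rose relative to HFHF controls, spread over all 5 steps, and 1 fell (edgeR's quasi-likelihood test, Benjamini-Hochberg adjusted p under 0.05). Gabarapl1, an ATG8 gene, rose 1.94-fold and Atg7, the enzyme that activates ATG8 proteins, rose 1.56-fold. The HOPS subunit genes Vps33a and Vps18 rose 1.32-fold and 1.29-fold, and the receptor gene Nbr1 rose 1.29-fold. Map1lc3a, another ATG8 gene, was the member that fell, to 0.724 of the HFHF control level. Of all 13667 genes tested, 38.6% passed in this comparison, 19.6% as higher and 19% as lower. Among the members 41.9% passed, 38.7% as higher and 3.23% as lower, so that the share passing was near the background while the share rising was above it and the share falling below it. The median log2 fold change over the tested members was 0.17, against 0.01 over all tested genes. For 9 of the members that rose, the lowest gRNA library exceeded the highest HFHF control, a separation seen for 5.04% of all genes, and for Map1lc3a the libraries separated in the other direction, as they did for 6.01% of all genes. In 27 of the 31 the fitted difference was positive. With upper-quartile scaling the share of all calls that were higher moved from 50.7% to 37.8%, and the members' median stayed positive at 0.11. In the same comparison 8 of 10 stellate cell markers and 7 of 9 macrophage markers fell and 3 of 8 hepatocyte markers rose. Of the other lists, 4 of 4 tested cholangiocyte and 3 of 3 neutrophil markers fell, 3 of 7 sinusoidal endothelial markers rose, and Kupffer cell and lymphocyte markers moved in both directions. Spp1 is in both the macrophage and the cholangiocyte list and was counted in each. Fewer cells of a type and less RNA per cell cannot be told apart in these bulk samples, and the part of cell composition in the members' differences was not tested.

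**Figure D1:**
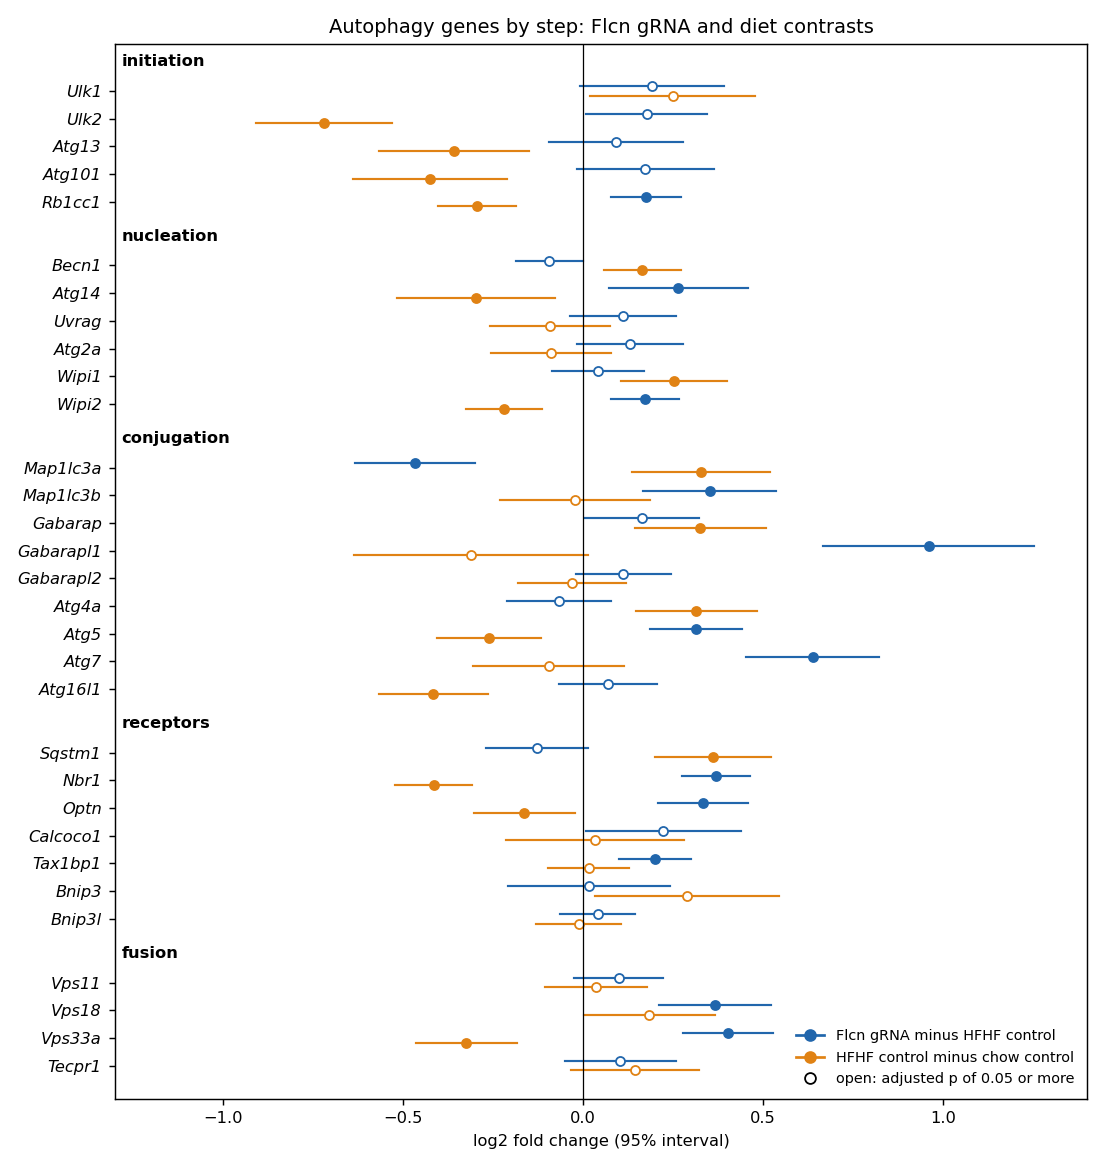
Log2 fold change of each of the 31 tested autophagy genes, ordered by step, for gRNA against HFHF control and for HFHF control against chow, with bars for the 95% confidence interval of the fit and filled symbols for adjusted p under 0.05. Gabarapl1 (0.96) and Atg7 (0.64) lie farthest to the right with the guide, Map1lc3a (-0.47) farthest to the left, and Ulk2 (-0.72) has the largest fall with the diet.

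In the diet comparison, HFHF controls against chow, 11 members fell and 6 rose, with 14 not past the threshold. The balance depended on the settings: with upper-quartile scaling, and again at a mean of at least 5 CPM, 9 fell and 10 rose. Ulk2, a kinase of the initiating complex, fell to 0.608 of the chow level and Nbr1 to 0.750, while Sqstm1, the gene of the receptor p62, rose 1.28-fold. Of all tested genes 57% passed in this comparison, 28.1% higher and 28.9% lower. Among the members 54.8% passed, 19.4% higher and 35.5% lower. Libraries of the 2 groups did not overlap for 3 members that were higher and 6 that were lower on the diet, beside 18.8% and 18.1% of all genes. The members' median log2 fold change was -0.03 beside -0.01 over all genes, and it became 0.06 with upper-quartile scaling, which also moved the share of all calls that were higher from 49.4% to 60.7%. On the diet 7 of 8 hepatocyte markers fell, 10 of 10 stellate markers rose and 9 of 9 macrophage markers rose. Among the remaining lists, 3 of 4 tested cholangiocyte, 3 of 3 tested neutrophil and 4 of 7 lymphocyte markers rose. Kupffer cell markers gave 2 rises and 2 falls, and sinusoidal endothelial markers 1 rise and 3 falls. The part of these shifts in the members' diet differences was not tested.

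The gRNA and diet comparisons share the 7 HFHF control libraries, so a low HFHF control value lowers a gene in one and raises it in the other, and the overlap of their calls is no result. Side by side, 7 members were lower on the diet and higher with the guide: Rb1cc1, Atg14, Wipi2, Atg5, Nbr1, Optn and Vps33a. The diet calls of Optn and Atg14 were lost under 16 and 6 of 18 alternatives. The share of all genes with the same pair of calls was not counted, so these joint counts only list the members. Map1lc3a was the 1 member that was higher on the diet and lower with the guide. Another 5 members rose with the guide without passing the test on the diet (Gabarapl1, Atg7, Map1lc3b, Tax1bp1 and Vps18), and 9 members passed in neither. Set against chow, the gRNA group had 13 members higher and 4 lower, where 42.6% of all genes passed, 20.9% higher and 21.7% lower. Those 13 were 41.9% of the tested members and the 4 were 12.9%. Of the 4 lower calls, that of Atg101 was lost under 17 of 19 alternatives and that of Atg13 under 11. The libraries of gRNA and chow did not overlap for 4 members in the upward direction, beside 9.01% of all genes, and for 2 in the downward direction, beside 8.98%.

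**Figure D2:**
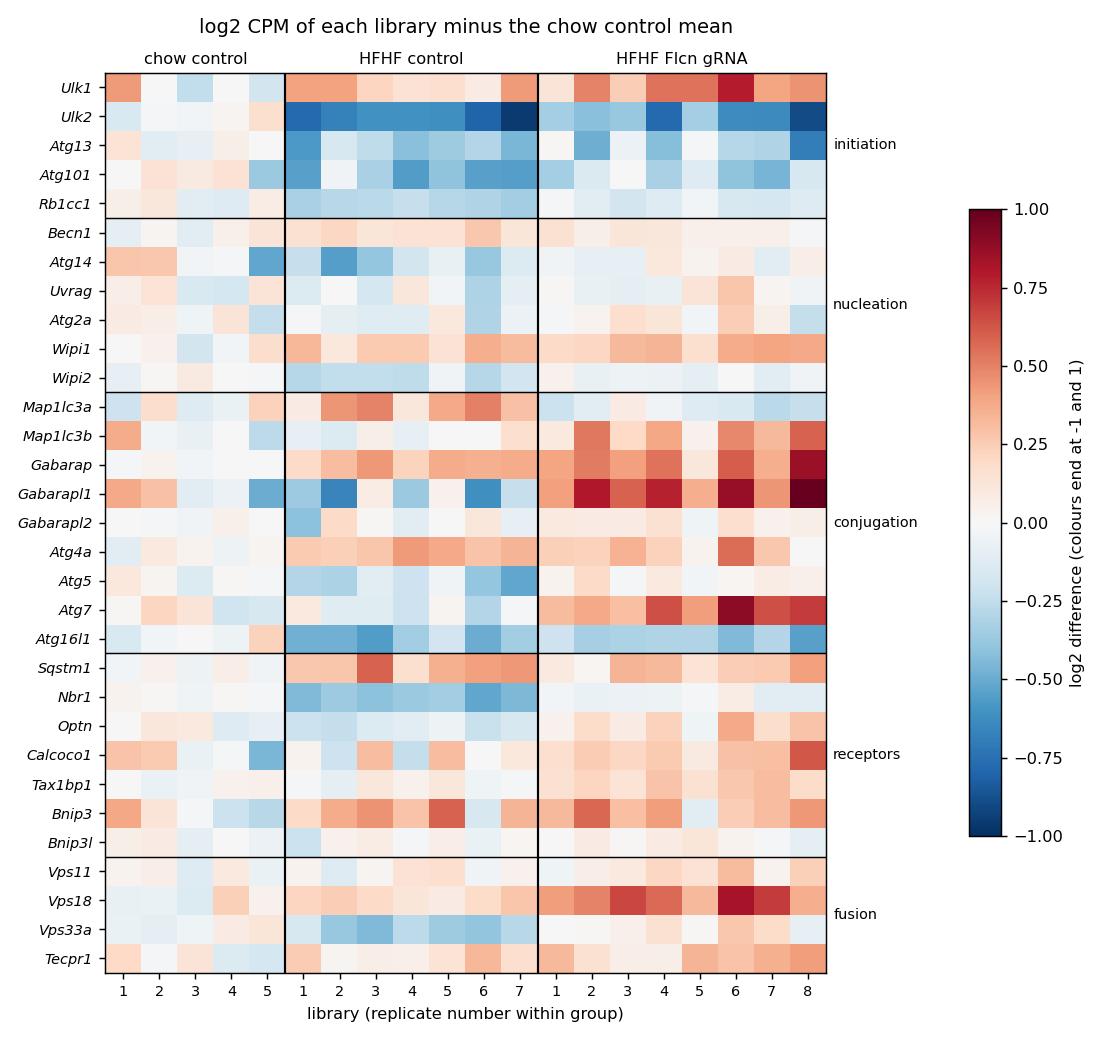
Each row is an autophagy gene and each column a library, grouped as chow, HFHF control and gRNA. The colour gives the log2 CPM of the gene minus its mean over the 5 chow libraries. Nbr1 and Vps33a are low throughout the 7 HFHF controls, Ulk2 is low throughout both diet groups, and Gabarapl1 and Atg7 are high in the 8 gRNA libraries.

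Of the 5 initiation genes, 4 were lower in HFHF controls than in chow, where 28.9% of all genes were lower, and 1 was higher in the gRNA group than in HFHF controls, where 19.6% of all genes were higher. Ulk2 (chr11:61775649-61855073, minus strand) encodes a kinase that works beside ULK1. Its chow libraries held 75.6, 83.43, 82.33, 85.86 and 93.92 CPM, the HFHF controls ran from 43.29 through a median of 52.65 to 55.11 CPM, and the gRNA libraries ran from 45.14 through 58.5 to 66.5 CPM. Every HFHF control and every gRNA library lay below the lowest chow library. The log2 difference on the diet was -0.72 (SE 0.09, adjusted p = 7.63e-07), and that of the guide on the diet was 0.18 (adjusted p = 0.0915). Against chow the gRNA group was still lower, by -0.54 on the log2 scale (adjusted p = 4.21e-05).

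Rb1cc1 (chr1:6206197-6276648, plus strand) encodes FIP200, the scaffold on which the ULK complex is built. It held 53.83, 55.82, 47.75, 47.16 and 54.39 CPM in the chow libraries, 40.66 to 44.12 CPM with a median of 42.45 in HFHF controls, and 45.58 to 50.84 CPM with a median of 47.26 in the gRNA libraries. The HFHF controls were a tight group of 42.2 ± 1.12 CPM (SD, n = 7) below every library of the other groups. Rb1cc1 differed by 0.17 with the guide on the log2 scale (SE 0.05, adjusted p = 0.00503) and by -0.29 on the diet (SE 0.05, adjusted p = 5.77e-05). Atg13 and Atg101, the accessory subunits of the ULK complex, also fell on the diet, by log2 differences of -0.36 (adjusted p = 0.00429) and -0.43 (adjusted p = 0.00127). With the guide their log2 differences were 0.09 and 0.17, neither past the threshold. Ulk1, the best studied kinase of the complex, gave 0.25 on the diet (adjusted p = 0.0583) and 0.19 with the guide (adjusted p = 0.121), and on the diet it passed as higher under 5 of 6 other settings. It was higher in the gRNA group than in chow, at 55.6 ± 7.77 CPM (SD, n = 8) against 40.9 ± 7.95 CPM (SD, n = 5), with an adjusted p of 0.00234. The kinases Ulk1 and Ulk2 thus differed from chow in opposite directions in the gRNA group.

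Nucleation and membrane growth held 2 rises with the guide among 6 tested genes, both of modest size, where 19.6% of all genes rose. Atg14 (chr14:47540893-47570649, minus strand) encodes the subunit that targets the phosphatidylinositol 3-kinase complex to autophagosome formation sites. The chow libraries held 18.97, 18.85, 15.36, 15.52 and 10.89 CPM. HFHF controls ran from 10.68 through 13.35 to 14.86 CPM and gRNA libraries from 14.44 through 15.59 to 16.79 CPM. The chow group was the widest and covered nearly the whole range of the others, and the HFHF control and gRNA ranges overlapped. Atg14 rose by 0.26 with the guide (log2, SE 0.09, adjusted p = 0.0287), and this call was lost with upper-quartile scaling (adjusted p = 0.0833), with genes kept at a mean of at least 5 CPM (adjusted p = 0.0729) and when any of 5 single libraries was left out, HFHF control replicate 2, 3 or 6 or gRNA replicate 4 or 8 (adjusted p between 0.0507 and 0.0702). Its fall on the diet, -0.30 (adjusted p = 0.0205), was lost under 4 other settings (adjusted p up to 0.103) and without chow replicate 1 (adjusted p = 0.145) or chow replicate 2 (adjusted p = 0.146).

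Wipi2 (chr5:142627698-142670588, plus strand) encodes the phosphoinositide-binding protein that recruits ATG16L1 to the growing membrane. Its chow libraries held 60.82, 64.91, 68.56, 64.1 and 63.26 CPM, HFHF controls ran from 52.71 through 54.12 to 62.61 CPM, and gRNA libraries ran from 59.86 through 61.84 to 66.28 CPM. A single HFHF control library, replicate 5, reached into the range of the gRNA libraries. The log2 difference with the guide was 0.17 (SE 0.05, adjusted p = 0.00461) and that of the diet was -0.22 (SE 0.05, adjusted p = 0.000885), while gRNA and chow differed by -0.05 (adjusted p = 0.459). Its relative Wipi1 went the other way on the diet, rising by 0.25 (adjusted p = 0.00433) from 12.3 ± 1.095 CPM in chow to 14.7 ± 0.963 CPM in HFHF controls, and stood at 15.1 ± 0.980 CPM in the gRNA group. Becn1, the gene of Beclin 1, rose by 0.16 on the diet (adjusted p = 0.00953) and gave -0.09 with the guide (adjusted p = 0.110), a value that passed as lower with upper-quartile scaling, with the DESeq2 Wald test and with genes kept at a mean of at least 5 CPM. Uvrag, whose product replaces ATG14 in the endosomal form of the complex, and Atg2a, which encodes a lipid transfer protein of the growing membrane, passed in no comparison. Atg9b, under the filter, had 7 counts in total over the chow libraries, 21 over the HFHF controls and 4 over the gRNA libraries, and it passed as lower with the guide when no filter was used.

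With the guide, conjugation held the largest rise and the largest fall among the tested members. In that comparison 4 of its 9 genes rose and 1 fell, where 19.6% of all genes rose and 19% fell. Gabarapl1 (ENSMUSG00000030161, chr6:129533160-129542346, plus strand) encodes an ATG8 protein of the GABARAP family. Its chow libraries held 355.7, 333.9, 252.8, 261.5 and 193.3 CPM. HFHF controls ran from 173.1 through a median of 212.3 to 287.8 CPM, and gRNA libraries ran from 351.7 through 438.3 to 565.9 CPM. No gRNA library was as low as the highest HFHF control, while the chow libraries spread between and into both ranges. The log2 difference with the guide was 0.96 (SE 0.14, adjusted p = 1.81e-05), and without gRNA replicate 8 it was 0.89 (adjusted p = 6.27e-05). On the diet the difference was -0.31 (adjusted p = 0.0939), and gRNA exceeded chow by 0.65 (adjusted p = 0.0021).

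Atg7 (chr6:114643097-114860614, plus strand) encodes the E1-like enzyme shared by the conjugation systems of ATG8 and ATG12. It held 34.79, 40.16, 37.84, 30.16 and 30.89 CPM in the chow libraries, 28.17 to 36.9 CPM with a median of 31.79 in HFHF controls, and 42.59 to 64.14 CPM with a median of 50.07 in the gRNA libraries. Every gRNA library exceeded every library of both other groups. Its log2 difference with the guide was 0.64 (SE 0.09, adjusted p = 7.93e-06), that of the diet was -0.10 (adjusted p = 0.437), and gRNA against chow gave 0.54 (adjusted p = 0.000154).

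Atg5 (chr10:44268358-44364291, plus strand) encodes the partner to which ATG12 is joined. Chow libraries held 50.01, 47.39, 42.3, 46.72 and 45.91 CPM, HFHF controls ran from 32.42 through 37.96 to 45.19 CPM, and gRNA libraries ran from 45.42 through 47.74 to 53.06 CPM. The gRNA libraries began just above the highest HFHF control and overlapped the chow libraries. Atg5 rose by 0.31 with the guide (log2, SE 0.06, adjusted p = 0.000363), fell by 0.26 on the diet (SE 0.07, adjusted p = 0.00288), and gave 0.05 for gRNA against chow (adjusted p = 0.566). Atg16l1, which encodes the subunit that anchors the ATG12-ATG5 conjugate to membranes, fell on the diet as well, from 26.2 ± 2.67 CPM to 19.66 ± 1.76 CPM (log2 -0.41, adjusted p = 5.25e-05). Unlike Atg5 it remained below chow in the gRNA group, at 20.6 ± 1.43 CPM (log2 -0.34, adjusted p = 0.00056). Atg4a, one of the proteases that trim ATG8 proteins before conjugation, rose on the diet by 0.32 (adjusted p = 0.00201), with every HFHF control above every chow library, and gave -0.07 with the guide (adjusted p = 0.485).

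Map1lc3a (chr2:155276297-155278073, plus strand) encodes LC3A, an ATG8 protein. Its chow libraries held 13.68, 17.92, 14.45, 15.08 and 18.6 CPM, HFHF controls ran from 16.77 through 20.55 to 22.46 CPM, and gRNA libraries ran from 13.14 through 14.36 to 16.72 CPM. The highest gRNA library lay just under the lowest HFHF control. The guide gave a log2 difference of -0.47 (SE 0.08, adjusted p = 8.52e-05), that of the diet was 0.33 (SE 0.09, adjusted p = 0.00428), and gRNA against chow gave -0.14 (adjusted p = 0.226). The fall with the guide passed under each of the 21 alternatives run for this comparison.

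Map1lc3b (chr8:121590361-121598760, plus strand) encodes LC3B, the form most used as an autophagosome marker. It held 92.59, 70.29, 68.1, 71.38 and 59.91 CPM in the chow libraries, 65.22 to 80.71 CPM with a median of 71.43 in HFHF controls, and 73.67 to 108 CPM with a median of 91.68 in the gRNA libraries. The ranges of HFHF controls and gRNA libraries overlapped. The guide gave a log2 difference of 0.35 (SE 0.09, adjusted p = 0.00323) and that of the diet was -0.02 (adjusted p = 0.861). Exons of Map1lc3b overlap those of Zcchc14 on the opposite strand, which averaged 32.2, 24.8 and 26.0 CPM in the 3 groups, and whether counting used strand is not given, so reads of the pair cannot be told apart. Gabarap rose on the diet from 142.8 ± 2.37 to 179 ± 10.6 CPM, with every HFHF control above every chow library (log2 0.33, adjusted p = 0.00298). With the guide it averaged 200.6 ± 30.5 CPM, a difference of 0.16 that did not pass (adjusted p = 0.0956). Gabarapl2 passed in no comparison and averaged 51.3, 50.2 and 54.3 CPM in chow, HFHF control and gRNA.

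**Figure D3:**
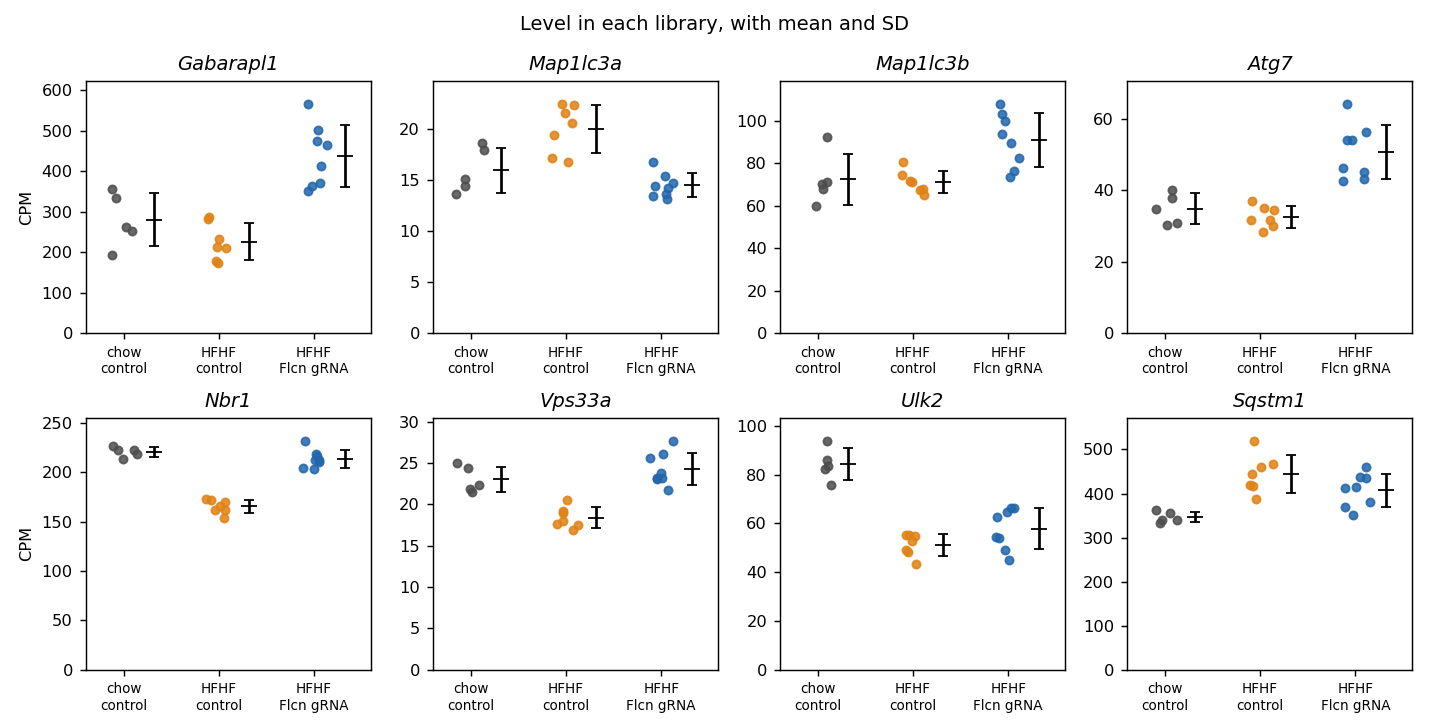
Level in CPM of the members that carry the main differences, 1 point for each library with the group mean and SD, on linear axes that start at 0. The gRNA libraries of Gabarapl1 (351.7 to 565.9) and Atg7 (42.59 to 64.14) lie above all HFHF controls, those of Map1lc3a (13.14 to 16.72) lie below them, and Ulk2 separates the chow libraries from both diet groups.

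The ATG8 family was compared across its 5 members per length, as CPM divided by the length in kilobases of the longest principal transcript. On this scale Gabarapl1 stood at 153.6 in chow, 123.8 in HFHF controls and 240.6 in the gRNA group, and Gabarap stood at 105.7, 132.5 and 148.5. Map1lc3b, Gabarapl2 and Map1lc3a followed, and Map1lc3a was the lowest in every library, at group means of 14.3, 18.0 and 13.0. Gabarapl1 was the highest in every chow and every gRNA library, while Gabarap and Gabarapl1 exchanged the first place among HFHF control libraries. Map1lc3b and Gabarapl2 exchanged places within each of the 3 groups. As a share of the summed per-length level of the family, Gabarapl1 made up 45.6 ± 5.52% (SD, n = 5) in chow, 37.0 ± 4.41% (n = 7) in HFHF controls and 51.0 ± 1.74% (n = 8) in the gRNA group. Its share ran from 31.1 to 41.9% in HFHF controls and from 48.2 to 52.7% in gRNA libraries, without overlap. The share of Gabarap ran from 37.1 to 43.0% in HFHF controls and from 30.1 to 33.6% in gRNA libraries. The shares add up to a whole, so a higher share of one lowers the others, and these values describe the make-up of the family and carry no test. Map1lc3b and Gabarapl2 have near copies in the genome, at up to 99.7% and 99.4% identity, that are not among the deposited genes. How reads shared with such copies were handled is not given, so the ranks and shares are uncertain.

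**Figure D4:**
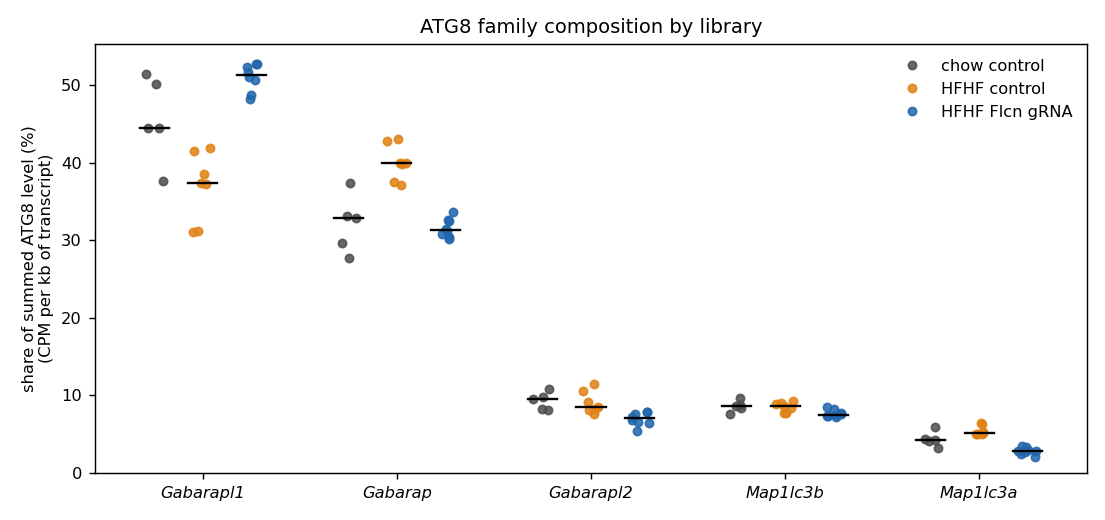
Share in percent of each ATG8 gene in the summed CPM per kilobase of the 5 genes, 1 point for each library with a line at the median of its group. Gabarapl1 takes 48.2 to 52.7% in the gRNA libraries against 31.1 to 41.9% in HFHF controls, and Map1lc3a takes the lowest share in every library.

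Of the 7 cargo receptor genes, 1 rose and 2 fell on the diet, where 28.1% of all genes rose and 28.9% fell. With the guide 3 of the 7 rose and none fell, where 19.6% of all genes rose and 19% fell. Nbr1 (chr11:101552149-101581951, plus strand) encodes a receptor for ubiquitinated cargo. Its chow libraries held 226.8, 222.9, 213.8, 222.4 and 218.2 CPM, HFHF controls ran from 154 through 165.8 to 173.3 CPM, and gRNA libraries ran from 203.6 through 212.7 to 232.1 CPM. The HFHF controls stood apart below every library of the other groups. Nbr1 differed by 0.37 with the guide on the log2 scale (SE 0.05, adjusted p = 1.88e-06) and by -0.41 on the diet (SE 0.05, adjusted p = 5.42e-07), and gRNA against chow gave -0.05 (adjusted p = 0.474). Sqstm1 (chr11:50199366-50210827, minus strand) encodes p62, which works with NBR1 and is itself degraded by autophagy. Chow libraries held 340.6, 356.8, 334.2, 361.9 and 338.9 CPM, HFHF controls ran from 386.4 through 444 to 520 CPM, and gRNA libraries ran from 351 through 413.4 to 459.3 CPM. Every HFHF control lay above every chow library, and the gRNA libraries overlapped both. Sqstm1 rose by 0.36 on the diet (SE 0.08, adjusted p = 0.00042) and gave -0.13 with the guide (adjusted p = 0.148), a value that passed as lower with upper-quartile scaling and with genes kept at a mean of at least 5 CPM.

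Optn (chr2:5020642-5064051, minus strand) encodes optineurin, a receptor for damaged mitochondria and bacteria. It held 82.29, 88.81, 87.7, 75.24 and 77.65 CPM in the chow libraries, 69.61 to 79.48 CPM with a median of 73.39 in HFHF controls, and 79.88 to 106.7 CPM with a median of 93.12 in the gRNA libraries. The lowest gRNA library lay just above the highest HFHF control. Its rise with the guide was 0.33 (log2, SE 0.06, adjusted p = 0.000139), while its fall on the diet (-0.16, adjusted p = 0.0437) was lost under 16 of 18 alternatives, with adjusted p up to 0.378. Tax1bp1 (chr6:52713729-52766780, plus strand) encodes a receptor of protein aggregates. Chow libraries held 153.9, 147, 150.6, 158.7 and 159.8 CPM, HFHF controls ran from 144.6 through 152.3 to 166.9 CPM, and gRNA libraries ran from 169.2 through 176.8 to 190.6 CPM. The gRNA libraries lay above all others, with a log2 difference of 0.20 from HFHF controls (SE 0.05, adjusted p = 0.00236) and of 0.21 from chow (adjusted p = 0.00271), and the diet gave 0.02. Bnip3 and Bnip3l, which encode mitochondrial receptors, and Calcoco1, a receptor of the endoplasmic reticulum, passed in neither the gRNA nor the diet comparison. Bnip3 was near the threshold on the diet (log2 0.29, adjusted p = 0.0508) and passed as higher there under 5 of 6 other settings. The level of Bnip3, 110.4, 134.9 and 136.4 CPM on average, is uncertain, because 858 bases of it match AC160336.1 at 98.3% identity and that gene took 301, 416 and 331 CPM.

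Fusion with the lysosome had 2 rises among 4 genes with the guide, where 19.6% of all genes rose. On the diet 1 of the 4 fell, where 28.9% of all genes fell. Vps33a (chr5:123528659-123573038, minus strand) encodes the HOPS subunit that binds SNARE proteins. Its chow libraries held 21.92, 21.5, 22.32, 24.36 and 24.98 CPM, HFHF controls ran from 16.88 through 17.98 to 20.58 CPM, and gRNA libraries ran from 21.69 through 23.5 to 27.7 CPM. The HFHF controls lay below every library of the other groups. The log2 difference with the guide was 0.40 (SE 0.06, adjusted p = 1.78e-05), that of the diet was -0.32 (SE 0.07, adjusted p = 0.000321), and gRNA against chow gave 0.08 (adjusted p = 0.356). This is the gene whose promoter, printed above, holds CACGTG at 2 places.

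Vps18 (chr2:119288740-119298453, plus strand) encodes a core subunit shared by HOPS and the early-endosome tether CORVET. It held 10.15, 10.15, 9.686, 12.55 and 10.97 CPM in the chow libraries, 11.28 to 12.94 CPM with a median of 12.16 in HFHF controls, and 13.37 to 18.87 CPM with a median of 15.4 in the gRNA libraries. Every gRNA library lay above all libraries of both other groups. The log2 difference with the guide was 0.37 (SE 0.08, adjusted p = 0.000526), that of the diet was 0.18 (adjusted p = 0.0784, passing as higher under 3 of 6 other settings), and gRNA against chow gave 0.55 (adjusted p = 2.69e-05). Vps11, another core subunit, gave 0.10 with the guide (adjusted p = 0.203) and 0.04 on the diet (adjusted p = 0.67). Tecpr1, which encodes a tether that binds ATG12-ATG5, gave 0.10 with the guide (adjusted p = 0.289) and was higher in the gRNA group than in chow by 0.25 (adjusted p = 0.0217). The 95% interval of Vps11 with the guide, -0.03 to 0.22, overlapped that of Vps18, 0.21 to 0.52, and a difference between the subunits was not tested.

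The 18 members that did not pass with the guide had log2 fold changes between -0.13 and 0.22, and their 95% intervals reached from -0.27 to 0.44. A miss of the threshold in these genes does not show that they were unchanged.

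Another 50 autophagy genes outside the group were counted for comparison, all of them tested. With the guide 17 rose and 3 fell, and on the diet 9 rose and 18 fell. The share rising with the guide was 34% and the share falling on the diet 36%, beside 19.6% and 28.9% of all genes. The share falling with the guide was 6% and the share rising on the diet 18%, beside 19% and 28.1%. In both directions together 40% passed with the guide and 54% on the diet, near the 38.6% and 57% of all genes. The smallest p-values among rises with the guide belonged to Zfyve1, which encodes DFCP1 at sites of autophagosome formation (log2 0.52, adjusted p = 7.49e-08), Atg2b, a lipid transfer protein (0.43, adjusted p = 8.35e-06), and Snap29, a SNARE of fusion with the lysosome (0.41, adjusted p = 3.1e-05). Falls with the guide were those of Stbd1, a glycogen receptor (-0.42, adjusted p = 0.00327), Trp53inp2, an ATG8-binding regulator (-0.32, adjusted p = 0.00963), and Ulk3, a kinase related to ULK1 (-0.24, adjusted p = 0.0402). On the diet the leading falls were Atg2b (-0.74, adjusted p = 9.38e-09), the tether gene Epg5 (-0.88, adjusted p = 9.51e-09) and Zfyve1 (-0.59, adjusted p = 1.26e-08). The leading rises on the diet were Sh3glb1, a membrane-bending partner of Beclin complexes (0.32, adjusted p = 4.32e-05), Nrbf2, a subunit of the ATG14 complex (0.39, adjusted p = 0.00021), and Fundc1, a mitochondrial receptor (0.41, adjusted p = 0.000487). By step, the rises with the guide were 0 of 3 in initiation, where Ulk3 fell, 5 of 13 in nucleation, 2 of 9 in conjugation, 4 of 15 among receptors and 6 of 10 in fusion.

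Fnip2 ranged widely among the gRNA libraries, from 67.3 to 209 CPM. Each tested member was set against it within the 8 gRNA libraries and, separately, within the 7 HFHF controls. Both axes were log2 CPM, and 31 relations were computed in each group, with exact two-sided permutation tests and Benjamini-Hochberg adjustment. Fnip2 was chosen with its rise in the gRNA group known. Atg7 followed it most closely in the gRNA libraries (Pearson r = 0.95, exact permutation p = 0.000546, adjusted 0.0169; Spearman rho = 0.90, adjusted p = 0.0707), and without the 2 libraries farthest from the Fnip2 median, replicates 3 and 6, r was 0.92 but no longer passed (exact permutation, adjusted p = 0.136). Optn gave r = 0.93 (exact permutation, adjusted p = 0.0173), rho = 0.90 (adjusted p = 0.0707) and, without those libraries, r = 0.94 (adjusted p = 0.0431). Gabarapl1 gave r = 0.74 (exact permutation, adjusted p = 0.143). Ulk2 ran against Fnip2, with r = -0.86 (exact permutation p = 0.0112, adjusted 0.115) and -0.98 without the 2 libraries. By Pearson's r, 10 of 31 members had an unadjusted p under 0.05 and 2 an adjusted one, and by Spearman's rho 0 had an adjusted one. Without gRNA replicate 8 the relations of Atg7 (r = 0.96) and Optn (r = 0.92) had an adjusted p of 0.083, so that 0 members passed. In HFHF controls 1 member had an unadjusted p under 0.05 and 0 an adjusted one, with r = 0.70 for Atg7, 0.30 for Optn and -0.03 for Ulk2. The difference between the groups in these correlations was not tested, and Fnip2 spanned a narrower range in HFHF controls, 22.2 to 39.0 CPM.

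**Figure D5:**
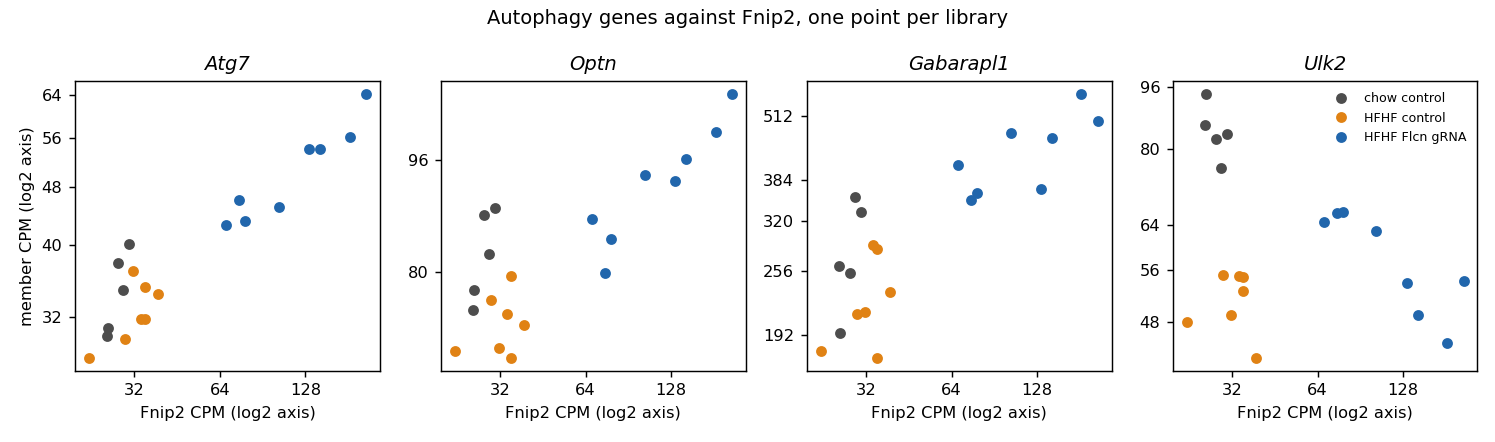
Level of members against the level of Fnip2 in each library, both in CPM on log axes, coloured by group. In the gRNA libraries, where Fnip2 runs from 67.3 to 209 CPM, Atg7 (r = 0.95) and Optn (r = 0.93) are higher where Fnip2 is higher, and Ulk2 (r = -0.86) is lower. The relation of Ulk2 did not pass after adjustment. No member passed by Spearman's rho, or by Pearson's r without gRNA replicate 8.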

How the data were processed

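Per the labels' protocols, liver RNA was extracted with Trizol, a poly(A) mRNA kit and adapters with molecular identifiers were used, and sequencing was single-end. The authors deposited a table of expected counts (estimated read numbers, of which 77.8% were whole among values of 1 or more). The genome build was GRCm38, per the submitters' processing notes. The aligner, counter, annotation, strand setting and treatment of identifiers were not given in the sources used here. Amplified copies or reads from overlapping genes may be included.

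Groups came from the diet and treatment labels, and replicate numbers were given in accession order. The members, the other lists and the tests were chosen with earlier results of these data known. Of 32422 features, 22 construct sequences with 7.0 counts in all were left out. The values of 1 column that matched no label were not used. Symbols came from GENCODE M21 (32325 genes matched). Expected counts were rounded, genes kept with filterByExpr on the 3 groups (13667 genes), and libraries scaled by TMM. All 3 groups entered 1 edgeR quasi-likelihood fit (edgeR 4.0.16, R 4.3.3, 17 residual degrees of freedom), with Benjamini-Hochberg adjustment over all tested genes and a threshold of 0.05. The fit was tested on simulated data. CPM uses the TMM-adjusted library size. Levels per kilobase use the longest APPRIS principal transcript.

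Full values were given for members past the threshold with the guide, and for those past it on the diet with a log2 fold change of at least 0.5 in size. Other members were given by counts, ranges or short values, some of which were chosen after they were seen, and up to 3 other autophagy genes of smallest p were named in each direction. Alternatives were DESeq2 size factors, upper-quartile scaling, the DESeq2 Wald test (DESeq2 1.42.0), no low-count filter, a mean of at least 5 CPM, fits of only the groups compared, and leaving out each library. The Fnip2 relation without gRNA replicate 8 was added after seeing the data. Near copies were sought with blastn 2.17.0 (at least 95% identity over 200 bases).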

Additional observations from a re-analysis of the deposited data

Results flagged for a closer look

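Among 93 sets of values, each tested member in each group, 3 had a highest library set far apart from the others of its group; chance alone gives about 1 in 20. Atg101 stood at 19.8 CPM in HFHF control replicate 2, where the next library held 16.3 CPM. Wipi2 stood at 62.6 CPM in HFHF control replicate 5, where the next held 56.4 CPM. Calcoco1 stood at 40.1 CPM in gRNA replicate 8, the library whose title carries a different number, where the next held 32.1 CPM.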

How the results depend on the processing

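Among members past the threshold, no direction reversed under any alternative. Signs of members that did not pass were not followed, and small ones can change with the scaling. With the guide, 12 of the 13 member calls held under all 21 alternatives, the exception being Atg14. On the diet, Atg14 lost its call under 6 and Optn under 16 of 18 alternatives. For gRNA against chow, the call of Atg101 was lost under 17 of 19 alternatives, among them all 6 other settings. In that comparison Atg13 lost its call under 11, Bnip3 under 8 and Optn under 6 of 19. Members lower with the guide were 1 in the fit reported, 3 with upper-quartile scaling, 2 with the DESeq2 Wald test, 2 without a low-count filter and 3 at a mean of at least 5 CPM. Members higher on the diet were 6, and 10 both with upper-quartile scaling and at a mean of at least 5 CPM. Members lower on the diet were 11, and 9 in both of those settings and without a low-count filter. Members lower in gRNA than in chow were 4, and 2 with upper-quartile scaling, without a low-count filter and with only the groups compared. They were 3 with DESeq2 size factors, with the DESeq2 Wald test and at a mean of at least 5 CPM. Leaving out 1 library gave 11 to 13 members higher and 1 to 1 lower with the guide, 6 to 9 higher and 9 to 11 lower on the diet, and 11 to 14 higher and 2 to 4 lower for gRNA against chow, where 2 were lower without chow replicate 1, 2, 3 or 4 or gRNA replicate 2, 4 or 8. The cause of these shifts was not tested. Members with an adjusted p for the Fnip2 relation were 2, 3 without the 2 farthest libraries (Optn, Ulk2 and Calcoco1) and 0 without gRNA replicate 8, where 7 libraries remained. No paired analysis was possible because the labels give no replicate numbers shared between groups. Depth limits Atg9b most, with at most 21 counts in a group.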
